A study of Mus musculus with 14 samples.

Results

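The unfolded protein response and the integrated stress response were followed through 10 genes in CD11b+ microglia/macrophages at 3 days post-TBI: *Hspa5*, *Hsp90b1*, *Dnajb9*, *Herpud1*, *Xbp1*, *Atf4*, *Ddit3*, *Trib3*, *Chac1* and *Asns*. The genes were taken as a list of symbols, and all 10 were matched by Ensembl ID among the 33939 genes of the table. Between hemispheres, *Atf4*, a stress transcription factor, was lower in the injured one in both genotypes, although its cKO call was lost with the mouse as a block, and *Trib3*, which ATF4 is known to induce, was higher in both. *Ddit3* (lower) and *Asns* (higher) passed the test in cKO with and without the block, and in Ctrl with it. The *Ddit3* call in cKO was lost in fits over all libraries. *Dnajb9* (lower) passed in cKO without the block and in Ctrl with it, and *Herpud1* (lower) in Ctrl with the block. The chaperone genes *Hspa5* and *Hsp90b1* did not pass the test in either genotype. No member passed it between cKO and Ctrl.

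Microglia/macrophages were sorted with CD11b MicroBeads from the ipsilateral (IL, injured) and contralateral (CL) hemispheres of tamoxifen-treated male C57BL/6 mice given as 8 to 12 weeks old, 3 days after a controlled cortical impact (TBI). Ctrl mice carried Cx3cr1-CreER+/-, and Nhe1 cKO mice carried Cx3cr1-CreER+/-;Nhe1flox/flox. The CreER is driven from Cx3cr1, a gene of microglia that other myeloid cells also use, and both genotypes carried it and received tamoxifen. The Ctrl CL and Ctrl IL groups held 4 libraries each, from the same 4 mice (3541, 3545, 3546 and 3551). The cKO CL group held mice 788, 791 and 3592, and the cKO IL group held mice 784, 791 and 3592. Every CL hemisphere came from an injured mouse, and no uninjured animal enters the values below.

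Levels are given as CPM, the reads of a gene scaled so that each library sums to 1000000. Differences are on the scale log2(CPM divided by a library scaling factor, plus 1), which understates the change of genes at a few CPM or less. A gene was called, or passed the test, when its Benjamini-Hochberg adjusted p in limma, taken over every gene tested, was at most 0.05 and its fold was 1.2 or more. The libraries held 12.2 to 41.6 M reads. The shallowest were Ctrl IL of mouse 3546, with 12.2 M, and Ctrl CL of mouse 3551, with 16.1 M. Each of 8 homeostatic microglia markers, such as *P2ry12* and *Tmem119*, was at 1 CPM or more in every library. Their summed level was lower in the IL groups, at 16114 to 17244 CPM in Ctrl and 14566 to 16123 CPM in cKO, than in the CL groups, at 28153 to 35143 CPM and 25202 to 27738 CPM. Neutrophil markers (8 genes) summed to 493 to 6051 CPM in Ctrl CL and 147 to 853 CPM in Ctrl IL, and to 492 to 1361 CPM in cKO CL and 212 to 348 CPM in cKO IL. Monocyte markers (6 genes) summed to 228 to 748, 369 to 594, 131 to 338 and 276 to 465 CPM, in the order Ctrl CL and IL, then cKO CL and IL. In bulk libraries, fewer cells of a type and less RNA per cell cannot be told apart.

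The unfolded protein response is the answer of a cell to misfolded protein in the endoplasmic reticulum (ER). It runs through the ER sensors IRE1, PERK and ATF6. IRE1 splices *Xbp1* mRNA so that it encodes an active transcription factor, ATF6 is cut to release another, and both raise genes for chaperones and for ER-associated degradation. PERK phosphorylates the translation factor eIF2, as the kinases GCN2, PKR and HRI do in the wider integrated stress response. Phosphorylated eIF2 slows most translation but lets ATF4 be made from mRNA that is already present, and ATF4 with CHOP, the product of *Ddit3*, induces genes of amino acid supply and feedback. The level of *Atf4* or *Xbp1* mRNA per gene therefore does not measure ATF4 protein or spliced *Xbp1*, neither of which was measured here.

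Promoter sequences are shown for the 6 members whose windows held a full response element, since these elements are how the ATF6/XBP1 arm and the ATF4 arm are told apart in textbooks. Promoters were the 250 bases before and 50 bases after the RefSeq gene start in GRCm38.p6, found for 10 of 10 members and searched on both strands among 32851 windows. The ER stress response element was searched as CCAAT and CCACG with 9 bases between them, and was held by 0.1187% of all windows. Its second form, ATTGG and CCACG with 1 base between, was held by 0.03653%, and the C/EBP-ATF response element TGATGNAA by 3.969%. The motif TGACGTGG, held by 0.6758%, was in no member's window. *Hspa5* held 1 ER stress response element, 65 to 47 bases before the start, and *Hsp90b1* held 2. *Herpud1* held the second form and, further upstream, the C/EBP-ATF element. *Asns*, *Chac1* and *Trib3* held the C/EBP-ATF element alone, which in *Trib3* lies 14 to 21 bases after the RefSeq start. The windows of *Dnajb9*, *Xbp1*, *Atf4* and *Ddit3* held none of these. The single motif CCAAT, part of the first element, was in 7 members and in 37.41% of all windows. A match is a run of letters and not a measured binding site. Capitals mark the matched letters in the stretches below, each written along the gene's own strand: *Hspa5* from chr2:34771985-34772083, *Hsp90b1* from chr10:86705493-86705694 (minus strand), *Herpud1* from chr8:94386277-94386427, *Asns* from chr6:7693210-7693272 (minus strand), *Chac1* from chr2:119351009-119351096 and *Trib3* from chr2:152344031-152344060 (minus strand, the first 30 bases from its RefSeq start). RefSeq starts, from which these positions are counted, differ from the ends of the Ensembl gene spans given with each gene below. The *Trib3* element lies before the Ensembl start of *Trib3*, and the elements of *Hspa5* and *Asns* lie within their Ensembl spans.
Hspa5: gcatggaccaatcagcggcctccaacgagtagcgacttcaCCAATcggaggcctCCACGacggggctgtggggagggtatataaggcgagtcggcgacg
Hsp90b1: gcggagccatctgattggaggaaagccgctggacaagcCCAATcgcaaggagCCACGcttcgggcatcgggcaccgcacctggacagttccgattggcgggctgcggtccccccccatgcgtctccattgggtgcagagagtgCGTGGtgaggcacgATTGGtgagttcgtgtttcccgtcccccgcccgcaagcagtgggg
Herpud1: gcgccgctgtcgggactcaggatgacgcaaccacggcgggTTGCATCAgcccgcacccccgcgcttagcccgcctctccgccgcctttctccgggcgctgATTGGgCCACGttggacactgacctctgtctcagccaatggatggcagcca
Asns: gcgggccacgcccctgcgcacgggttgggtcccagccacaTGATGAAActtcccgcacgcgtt
Chac1: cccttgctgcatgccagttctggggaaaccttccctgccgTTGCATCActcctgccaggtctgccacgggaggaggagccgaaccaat
Trib3: agattagctcaggtTTACATCAgccgggcg

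By level per kilobase of exon, the only scale on which genes are compared here, the members spanned a wide range. *Hspa5* was among the most abundant mRNAs of these cells, at rank 49 to 94 of 33802 genes across the 14 libraries. *Hsp90b1* lay at rank 107 to 202, *Herpud1* at 131 to 455, *Xbp1* at 318 to 543 and *Atf4* at 384 to 1033. *Ddit3* (rank 1178 to 4968) and *Dnajb9* (rank 2054 to 4288) were intermediate. *Asns*, *Trib3* and *Chac1* were low, with best ranks of 6503, 8302 and 11895. In Ctrl CL the mean level was 697 CPM per kb for *Hspa5*, 288 for *Hsp90b1*, 212 for *Herpud1*, 135 for *Xbp1*, 106 for *Atf4*, 35.2 for *Ddit3*, 21.7 for *Dnajb9*, 1.49 for *Asns*, 0.536 for *Trib3* and 0.296 for *Chac1*. In that order the libraries of *Hsp90b1* and *Herpud1*, of *Xbp1* and *Atf4*, of *Ddit3* and *Dnajb9*, and of *Trib3* and *Chac1* overlapped, and those of the other neighbours did not.

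**Figure D1:**
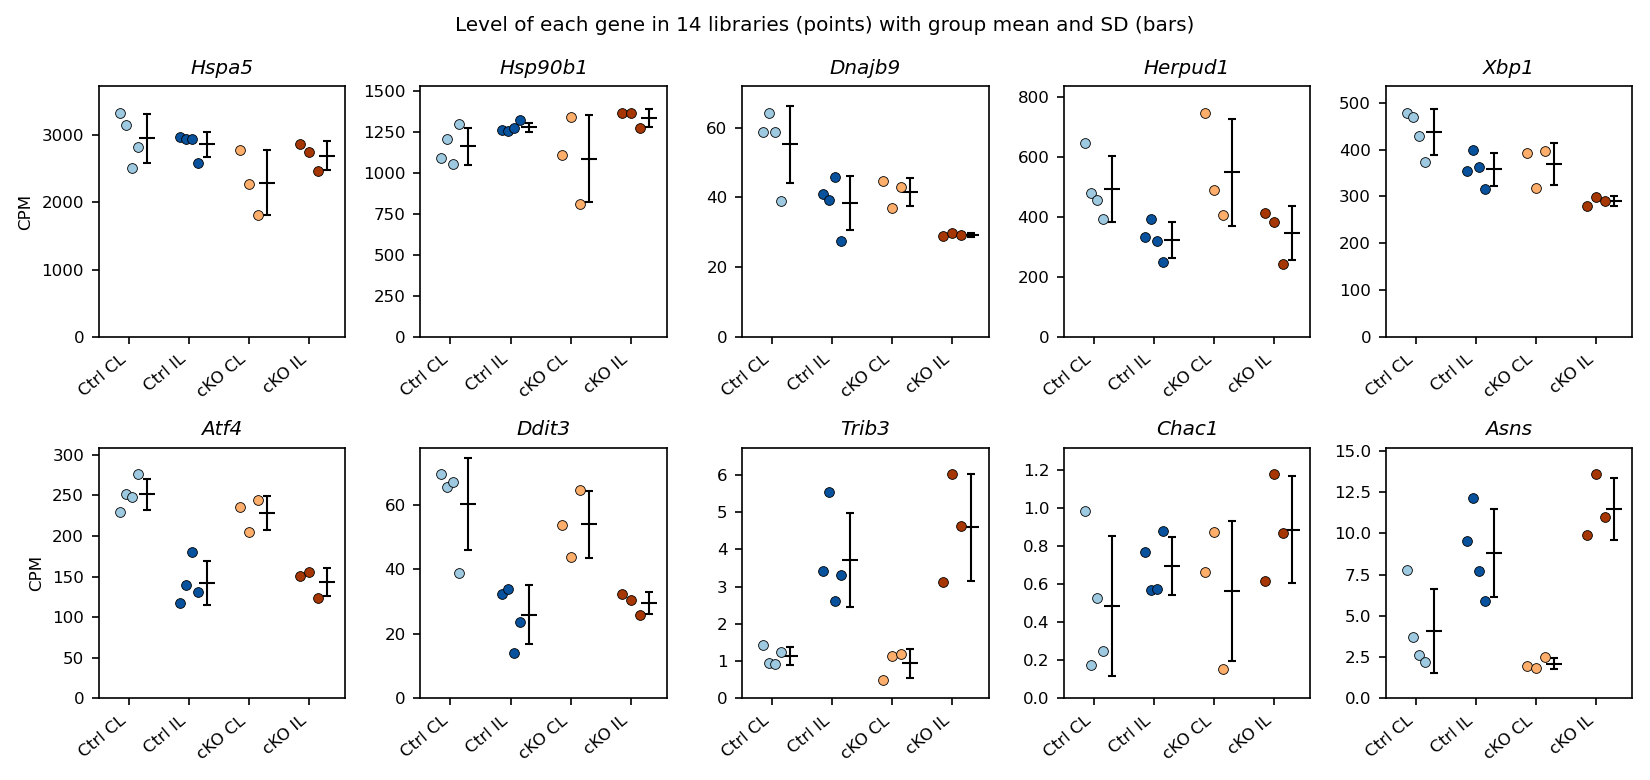
CPM of each of the 10 genes (vertical axes, each starting at 0) in the 14 libraries, by group; points are libraries, and bars are the group mean ± SD. Atf4 and Ddit3 sat lower and Trib3 higher in the IL than in the CL libraries of both genotypes, without overlap between hemispheres.

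The first question was how these genes differed between the injured and the contralateral hemisphere, which was asked in each genotype. In Ctrl, 2 of 10 members passed the test: *Atf4* was lower in IL, where 2.97% of 16376 genes tested were called lower, and *Trib3* was higher, where 3.68% were called higher. In cKO, 5 of 10 passed: *Dnajb9*, *Atf4* and *Ddit3* were lower (9.55% of 16756 genes were called lower) and *Trib3* and *Asns* were higher (12.7% were called higher). Since 6 mice gave both hemispheres and libraries of a mouse deviated together, the fit with the mouse as a block is given beside these counts. With the block, 6 of 10 members passed in Ctrl, namely *Dnajb9*, *Herpud1*, *Atf4* and *Ddit3* lower (background 10.7%) and *Trib3* and *Asns* higher (background 9.84%). In cKO the block left 2 informative mice and 3 called members, *Ddit3* lower (background 4.94%) and *Trib3* and *Asns* higher (background 8.9%).

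*Atf4*, the transcription factor at the centre of the integrated stress response (chr15:80255184-80257541 in GRCm38, the gene's span on the annotation), was at 229, 252, 248 and 276 CPM in Ctrl CL of mice 3541, 3545, 3546 and 3551. In Ctrl IL of the same mice it was at 118, 139, 180 and 131 CPM. In cKO CL it was at 235, 205 and 244 CPM in mice 788, 791 and 3592, and in cKO IL at 150, 155 and 123 CPM in mice 784, 791 and 3592. Every IL library was below every CL library, in both genotypes. The difference was −0.76 ± 0.14 (log2, SE; adjusted p = 0.0113) in Ctrl, or 1.69-fold lower, and −0.59 ± 0.15 (adjusted p = 0.0243) in cKO, or 1.51-fold lower. In Ctrl *Atf4* passed in 18 of 18 alternatives that kept the call rule. In cKO it did not pass with the mouse as a block (adjusted p = 0.0693), without CL of mouse 788 (0.0708), without IL of mouse 784 (0.0611), without IL of mouse 3592 (0.0605) or with no filter on low values (0.0594).

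*Ddit3*, which encodes the transcription factor CHOP (chr10:127290774-127296288), was at 69.5, 65.5, 67.2 and 38.9 CPM in Ctrl CL and at 32.5, 33.9, 14 and 23.7 CPM in Ctrl IL of mice 3541, 3545, 3546 and 3551. In cKO CL it was at 53.8, 43.9 and 64.6 CPM and in cKO IL at 32.5, 30.6 and 25.8 CPM. The hemispheres did not overlap in either genotype, although the CL library of mouse 3551 stood well below the other Ctrl CL libraries and the shallow IL library of mouse 3546 was the lowest of all. The difference in cKO was −0.75 ± 0.17 (adjusted p = 0.0171). It lost its call there without CL of mouse 788 (adjusted p = 0.0506), without IL of mouse 3592 (0.0535), in 1 fit over all 14 libraries (0.257) and with the mouse as a random effect in that fit (0.106). In Ctrl it was −1.15 ± 0.36 (adjusted p = 0.0965), and passed with the mouse as a block (adjusted p = 0.0170) and without the 2 shallow libraries (0.0250), a setting chosen after the data were seen. Exons of *Ddit3* share 68 bases with *Mars*, a gene on the opposite strand that reached 162.7 CPM, and strand was not stated for the counting, so reads of the shared bases cannot be told apart.

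*Xbp1*, the transcription factor of the IRE1 arm (chr11:5520659-5525893), was at 478, 470, 430 and 373 CPM in Ctrl CL and 354, 400, 363 and 315 CPM in Ctrl IL. The cKO libraries were at 393, 319 and 398 CPM in CL and 280, 300 and 291 CPM in IL. Thus the cKO IL libraries lay below the cKO CL libraries, while the Ctrl hemispheres overlapped. The difference did not pass, at −0.21 ± 0.20 (adjusted p = 0.624) in Ctrl and −0.26 ± 0.13 (adjusted p = 0.180) in cKO.

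*Trib3*, a pseudokinase that ATF4 and CHOP induce and that feeds back on ATF4 (chr2:152337422-152344032, minus strand), was at 1.44, 0.953, 0.918 and 1.24 CPM in Ctrl CL of mice 3541, 3545, 3546 and 3551. In Ctrl IL of those mice it was at 3.41, 5.55, 2.62 and 3.30 CPM. In cKO CL it was at 0.498, 1.13 and 1.2 CPM and in cKO IL at 3.13, 6.01 and 4.63 CPM. All 7 IL libraries lay above all 7 CL libraries, and the lowest value rested on 18 reads. The difference was 1.17 ± 0.25 (adjusted p = 0.0218) in Ctrl and 1.57 ± 0.25 (adjusted p = 0.00515) in cKO. In cKO it passed in 15 of 15 alternatives that kept the call rule. In Ctrl its adjusted p was 0.0705 without CL of mouse 3545, 0.0650 without CL of mouse 3546, 0.0703 without IL of mouse 3541, 0.0543 without IL of mouse 3545 and 0.101 with no filter on low values.

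*Asns* encodes asparagine synthetase, the enzyme that makes asparagine and a standard ATF4 target (chr6:7675169-7693254, minus strand). It was at 7.79, 3.71, 2.65 and 2.18 CPM in Ctrl CL and at 9.50, 12.1, 7.69 and 5.91 CPM in Ctrl IL of mice 3541, 3545, 3546 and 3551. In cKO it was at 1.99, 1.86 and 2.48 CPM in CL and at 9.89, 13.6 and 11 CPM in IL. The cKO hemispheres were far apart, and in Ctrl only the CL library of mouse 3541 reached into the IL range. The difference was 2.07 ± 0.19 (adjusted p = 0.00180) in cKO, 4.19-fold higher, which passed in 15 of 15 alternatives. In Ctrl it was 1.08 ± 0.39 (adjusted p = 0.142), and passed with the mouse as a block (adjusted p = 0.0136) and without CL of mouse 3541 (0.0442). *Chac1*, an enzyme that degrades glutathione and a target of ATF4 (chr2:119351229-119354381), was at 0.155 to 1.18 CPM across the 14 libraries, with as few as 4 reads. Its difference was 0.24 ± 0.19 (adjusted p = 0.544) in Ctrl and 0.32 ± 0.21 (adjusted p = 0.316) in cKO. At levels this low the size depended on the number added before the log: with 0.1 in place of 1 it was 0.70 ± 0.48 (95% interval −0.38 to 1.77) in Ctrl and 0.81 ± 0.54 (−0.44 to 2.06) in cKO, so a change of *Chac1* was neither detected nor closely bounded.

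*Herpud1* encodes an ER membrane protein of ER-associated degradation (chr8:94386438-94395377). It was at 649, 481, 456 and 392 CPM in Ctrl CL and 335, 393, 320 and 250 CPM in Ctrl IL. The cKO libraries were at 749, 492 and 408 CPM in CL and 414, 385 and 245 CPM in IL. The hemispheres overlapped narrowly in both genotypes, yet each mouse with both hemispheres had the lower value in IL. The difference was −0.53 ± 0.26 (adjusted p = 0.290) in Ctrl and −0.56 ± 0.29 (adjusted p = 0.206) in cKO, and the Ctrl difference passed with the mouse as a block (adjusted p = 0.0162).

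*Dnajb9* encodes ERdj4, a co-chaperone of BiP and an XBP1 target (chr12:44205559-44210326, minus strand). It was at 58.9, 64.2, 58.8 and 39.1 CPM in Ctrl CL and 40.9, 39.3, 45.9 and 27.5 CPM in Ctrl IL. The cKO libraries were at 44.7, 37.1 and 43.0 CPM in CL and 28.8, 29.8 and 29.2 CPM in IL. The Ctrl hemispheres overlapped through mouse 3551, which was lowest in both, and the cKO hemispheres did not overlap. The difference was −0.41 ± 0.12 (adjusted p = 0.0429) in cKO and −0.44 ± 0.26 (adjusted p = 0.380) in Ctrl, where it passed with the block (adjusted p = 0.0167). The cKO call was lost with the block (0.218) and without CL of mouse 788 (0.121), CL of mouse 3592 (0.0785), IL of mouse 784 (0.124), IL of mouse 791 (0.0721) or IL of mouse 3592 (0.140).

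*Hspa5* encodes BiP, the main ER chaperone and the gene most used to read the unfolded protein response (chr2:34771970-34777547). It was at 3322, 3143, 2507 and 2812 CPM in Ctrl CL and 2965, 2939, 2932 and 2585 CPM in Ctrl IL. In cKO it was at 2775, 2270 and 1812 CPM in CL and 2866, 2749 and 2456 CPM in IL. These ranges overlapped in both genotypes, and the 2 IL groups were the tighter ones. The difference was 0.04 ± 0.22 (95% interval −0.46 to 0.53, adjusted p = 0.961) in Ctrl, where its sign turned with the deposited CPM unscaled, and 0.34 ± 0.23 (−0.18 to 0.85, adjusted p = 0.318) in cKO. *Hsp90b1*, which encodes the ER chaperone GRP94 (chr10:86690209-86705509, minus strand), ranged in Ctrl over 1055 to 1296 CPM (CL) and 1253 to 1320 CPM (IL), and in cKO over 810 to 1338 CPM (CL) and 1272 to 1365 CPM (IL). Its difference was 0.22 ± 0.16 (−0.14 to 0.58, adjusted p = 0.516) in Ctrl and 0.41 ± 0.20 (−0.06 to 0.87, adjusted p = 0.185) in cKO. An opposite-strand pseudogene that shares 415 of its exon bases was at 11.5 CPM at most.

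Set against all genes, the groups failed to overlap for 2 of 10 members lower in Ctrl IL (11.4% of genes), 1 of 10 higher (6.26%), 4 of 10 lower in cKO IL (24.3%) and 2 of 10 higher (18.1%). Within the 6 mice that gave both hemispheres, *Dnajb9*, *Herpud1*, *Atf4* and *Ddit3* were lower in IL in 6 of 6, as were 15% of 18476 genes. *Hsp90b1*, *Trib3* and *Asns* were higher in 6 of 6, as were 13.9% of genes. *Xbp1* was lower in 5 of 6, with mouse 791 the exception, and *Hspa5* and *Chac1* were higher in 5 of 6, with mouse 3541 the exception, although the *Hspa5* difference of mouse 3545 was only 0.00034. The median difference within mice was −0.81 for *Atf4*, −0.91 for *Ddit3*, 1.2 for *Trib3* and 1.42 for *Asns*, and the smallest was −0.21, −0.32, 0.89 and 0.34.

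**Figure D2:**
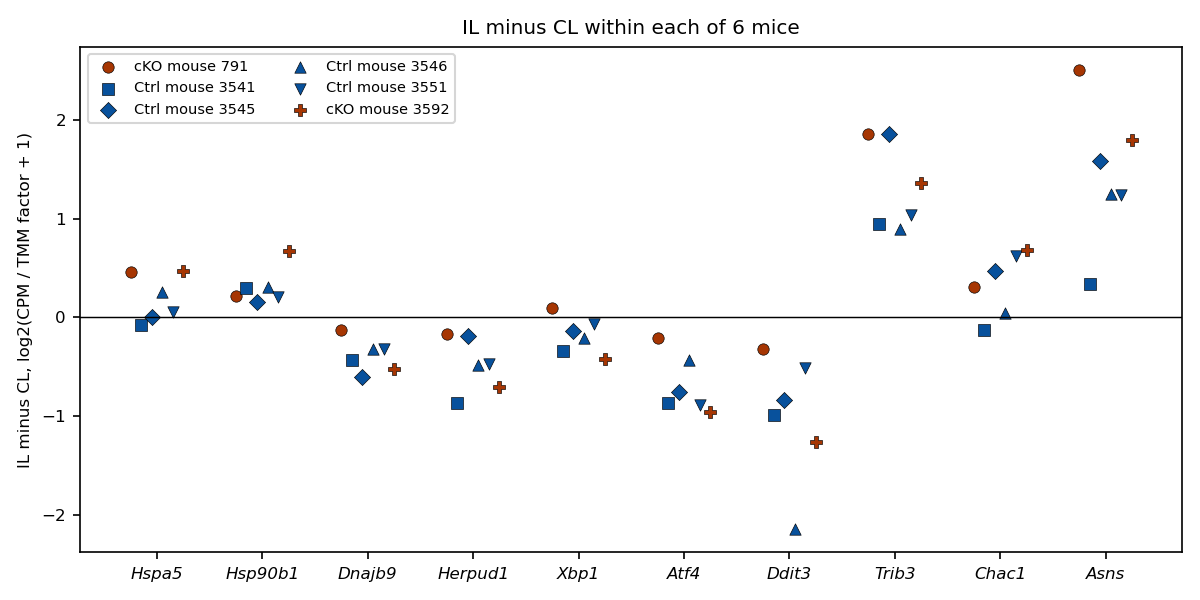
IL minus CL for each gene in each of the 6 mice with both hemispheres (log2(CPM divided by the scaling factor, plus 1), vertical axis); blue marks Ctrl and brown cKO mice, and each symbol shape is a mouse. All 6 symbols lie below 0 for Dnajb9, Herpud1, Atf4 and Ddit3 and above 0 for Hsp90b1, Trib3 and Asns.

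Other measures moved with the hemispheres. Immediate early and dissociation response genes (12 genes such as *Fos*, *Jun* and *Egr1*, each at 1 CPM or more in every library) summed to 28185 to 38168 CPM in Ctrl CL and 21370 to 25022 CPM in Ctrl IL, and to 32372 to 45833 CPM in cKO CL and 22417 to 26435 CPM in cKO IL. Like *Atf4* and *Ddit3*, this sum was higher in every CL library than in any IL library. The homeostatic microglia markers differed in the same direction, with 6 of 8 called lower in IL in each genotype, where 2.97% of all genes were called lower in Ctrl and 9.55% in cKO. Of the 12 immediate early and dissociation genes, 0 were called lower and 1 higher in Ctrl, and 4 lower and 1 higher in cKO, so their sum hides members that differed the other way. B and plasma cell genes (7 genes, 2 of them at 1 CPM or more in every library of each group) also had lower sums in IL without overlap, at 550 to 843 against 323 to 350 CPM in Ctrl and 658 to 764 against 321 to 490 CPM in cKO. T and NK cell genes (6 genes) summed to 8.28 to 17.4 against 3.76 to 5.18 CPM in Ctrl, without overlap, and to 4.24 to 9.03 against 3.40 to 11.4 CPM in cKO. Other lists held members that were higher in IL. Of 6 monocyte markers, 2 were called higher in each genotype (*Ccr2* and *Vcan* in Ctrl, *Plac8* and *Vcan* in cKO). Of all genes, 3.68% were called higher in Ctrl and 12.7% in cKO. The difference was below 0 for 2 of the 6 monocyte markers in Ctrl and 1 in cKO. The mean of *Chil3* was lower in IL, at 236 and 104 CPM in CL and IL of Ctrl and 73.7 and 62.2 CPM in those of cKO. Called higher in both genotypes were also the astrocyte gene *Gfap*, from 9.42 to 33.9 CPM in Ctrl and 7.81 to 31.1 CPM in cKO, and the border-associated macrophage gene *Ms4a7*, from 32.3 to 82.7 CPM and 30.8 to 75.6 CPM. Other members of these lists went the other way. The difference was below 0 for 2 of 5 astrocyte genes in each genotype. It was below 0 for 3 of 5 border-associated macrophage genes in Ctrl and 2 of 5 in cKO. The macrophage gene *Cbr2* was called lower in Ctrl, and in cKO 2 of 5 endothelial and 2 of 5 oligodendrocyte genes tested were called higher (12.7% of all genes). The part of any of these lists in the differences of the 10 members was not tested.

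The second question was whether these genes differed between cKO and Ctrl in either hemisphere. Of the 10 members, 0 passed between cKO and Ctrl in IL, where 0.656% of 16919 genes were called, and 0 passed in CL, where 0.873% of 16603 genes were called. At an unadjusted p under 0.05 the count of members was also 0 in both hemispheres. Of all genes, 1512 of 16919 in IL and 1624 of 16603 in CL were under that limit. In IL the differences ran from −0.34 for *Dnajb9* to 0.39 for *Asns*, with adjusted p values of 0.685 to 0.982. *Atf4* was at 142 ± 26.8 CPM (SD, n = 4) in Ctrl IL and 143 ± 17.3 CPM (n = 3) in cKO IL, a difference of 0.03 with a 95% interval of −0.31 to 0.38. *Hspa5* was at 2856 ± 181 and 2690 ± 211 CPM, a difference of −0.07 (−0.49 to 0.34). *Ddit3* was at 26.0 ± 9.20 and 29.6 ± 3.41 CPM, with the widest interval, −0.55 to 1.07, so differences within it were not excluded. A call needed an adjusted p over all genes tested, so a difference in *Ddit3* beyond that interval could also have gone uncalled.

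*Xbp1* was the only member whose cKO and Ctrl libraries did not overlap. In IL it was at 290 ± 9.91 CPM in cKO and 358 ± 35.0 CPM in Ctrl, with 5.47% of genes below without overlap and 4.84% above. Its difference did not pass the test (−0.28 ± 0.15, adjusted p = 0.685). In CL 0 of 10 members were without overlap, against 3.97% of genes above and 6.02% below, and the adjusted p values were 0.630 to 0.938. *Asns* had the largest CL difference, with 2.11 ± 0.327 CPM in cKO and 4.08 ± 2.55 CPM in Ctrl (−0.61 ± 0.36, 95% interval −1.42 to 0.19). The high SD came from the Ctrl library of mouse 3541, at 7.79 CPM. *Hspa5* in CL was at 2286 ± 482 CPM in cKO and 2946 ± 361 CPM in Ctrl (−0.39 ± 0.27, interval −0.98 to 0.20).

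The third question was whether the difference between hemispheres itself differed between genotypes. The interaction term passed for 0 of 10 members and for 0% of 18476 genes in limma, with 478 genes and no member at an unadjusted p under 0.05, and for 3 genes with the mouse as a random effect. *Asns* came nearest among the members, with 0.98 ± 0.51 (95% interval −0.10 to 2.07, unadjusted p = 0.0723, adjusted p = 1.0). For *Atf4* the interaction was 0.17 ± 0.20 (−0.26 to 0.59), for *Trib3* 0.40 ± 0.37 (−0.40 to 1.2) and for *Hspa5* 0.30 ± 0.31 (−0.36 to 0.96). The number of members called was larger in cKO than in Ctrl without the block (5 against 2) and smaller with it (3 against 6). The count over all genes went the same way. Without the block it was 3736 of 16756 genes in cKO against 1089 of 16376 in Ctrl, and with the block 2320 against 3359.

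**Figure D3:**
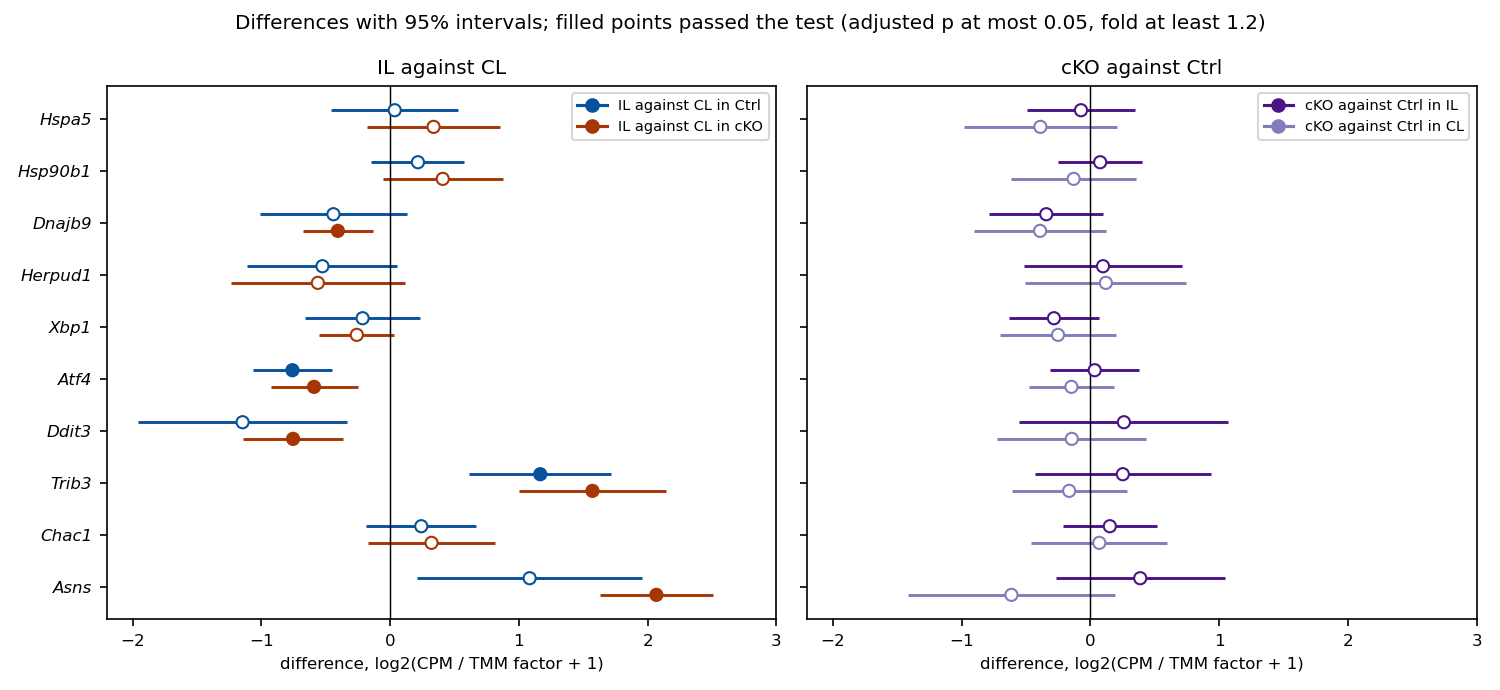
Differences on the log2(CPM divided by the scaling factor, plus 1) scale (horizontal axes) with 95% intervals, for IL against CL in each genotype (left) and cKO against Ctrl in each hemisphere (right). Filled points passed the test: 2 in Ctrl and 5 in cKO on the left, and 0 on the right, where every interval crosses 0.

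Beside the members, 73 further genes of both responses were in the table. In Ctrl, 3 of 72 tested were called, all higher in IL: *Slc7a11*, *Sec24d* and *Gdf15*. That is near the 3.68% of all genes called higher there. The median difference of the 72 was 0.13, against −0.04 over all genes tested. In cKO, 19 of 71 were called higher (12.7% of all genes) and 1 lower (9.55%), with a median of 0.27 against 0.02 over all genes. With the mouse as a block, 14 were called in Ctrl, 12 of them higher (9.84% of all genes) and *Atf3* and *Slc38a2* lower (10.7%), and 18 in cKO, all higher (8.9%, with 4.94% lower). Between cKO and Ctrl 0 were called in either hemisphere with all libraries, and for the interaction 0.

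*Slc7a11*, the cystine transporter that ATF4 and NRF2 induce, differed most. It was at 8.10 ± 2.38 CPM in Ctrl CL and 56.4 ± 11.6 CPM in Ctrl IL (2.75 ± 0.26, adjusted p = 0.000553), and at 9.26 ± 2.98 and 48 ± 13 CPM in cKO (2.34 ± 0.25, adjusted p = 0.00180). Of 10 genes of amino acid synthesis and transport tested there, 4 rose in cKO IL, where 12.7% of all genes were called higher, and 1 of 11 rose in Ctrl (3.68%). Besides *Slc7a11* they were *Psat1* of serine synthesis, at 58.2 ± 19.8 against 143 ± 8.41 CPM (adjusted p = 0.00529), and the mitochondrial one-carbon enzymes *Shmt2* (67.8 ± 11.3 against 108 ± 7.47 CPM, adjusted p = 0.0110) and *Mthfd2* (29.8 ± 5.99 against 46.3 ± 4.19 CPM, adjusted p = 0.0248). *Psat1* was called between genotypes in CL only without Ctrl CL of mouse 3546 (−1.34, adjusted p = 0.0451), against −1.04 (adjusted p = 0.276) with all libraries. Of 6 tRNA synthetase genes, *Sars* was called higher in cKO (92.3 ± 6.38 against 121 ± 5.39 CPM, adjusted p = 0.0171), as were 12.7% of all genes. With the block, *Psat1* (adjusted p = 0.0131) and *Sars* (0.0320) also passed in Ctrl.

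Of 16 ER chaperones and folding enzymes other than the members, 0 were called in Ctrl (3.68% of all genes were called higher), with a median of 0.22 against −0.04 over all genes. In cKO 5 of 16 were called higher (12.7% of all genes), with a median of 0.42 against 0.02. These were *Pdia6*, a disulphide isomerase (615 ± 126 CPM in cKO CL, 864 ± 57.3 CPM in cKO IL, adjusted p = 0.0415), *Hyou1*, a nucleotide exchange factor of BiP (29.3 ± 7.51 and 41.5 ± 2.71 CPM, adjusted p = 0.0325), the BiP co-chaperone *Dnajb11* (178 ± 27.6 and 231 ± 11.1 CPM, adjusted p = 0.0471), *Txndc5* (141 ± 15.4 and 181 ± 9.37 CPM, adjusted p = 0.0241) and *Sdf2l1* (204 ± 47.1 and 289 ± 25.3 CPM, adjusted p = 0.0276). With the block, *Dnajb11* and *Txndc5* kept their calls in cKO, *Pdia6* (adjusted p = 0.0614), *Hyou1* (0.0836) and *Sdf2l1* (0.0714) lost them, and *Creld2* gained one (0.0183). In Ctrl the block called *Creld2*, *Hyou1* and *P4hb* higher. For ER-associated degradation 0 of 10 genes were called in Ctrl (3.68% of all genes were called higher) and 2 in cKO (12.7%). These were *Vcp*, the ATPase that pulls proteins from the ER, at 215 ± 15 and 261 ± 13.7 CPM (adjusted p = 0.0350), and the reductase *Dnajc10*, at 75.9 ± 9.73 and 99.8 ± 3.32 CPM (adjusted p = 0.0275). With the block, *Vcp* lost its call in cKO (adjusted p = 0.0831), and *Vcp*, *Dnajc10* and *Os9* were called higher in Ctrl. Of 5 genes of transport into and out of the ER, *Sec24d* of the COPII coat rose in both genotypes, from 40.6 ± 7.34 to 67.8 ± 7.48 CPM in Ctrl (adjusted p = 0.00731) and from 36.8 ± 5.43 to 68.4 ± 7.94 CPM in cKO (adjusted p = 0.00363). *Sec61b*, a subunit of the protein channel of the ER, was called in cKO (31.8 ± 4.56 and 57.8 ± 2.57 CPM, adjusted p = 0.00215). Thus 1 of these 5 genes was called in Ctrl (3.68% of all genes were called higher) and 2 in cKO (12.7%).

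Among the 7 sensors and eIF2 kinases, *Eif2ak3*, which encodes PERK, was called lower in cKO (44.1 ± 6.29 CPM in CL, 27.4 ± 4.22 CPM in IL, adjusted p = 0.0185), a call lost with the block (0.0597), and *Eif2ak2*, which encodes PKR, was called higher (6.79 ± 2.88 and 15.1 ± 2.21 CPM, adjusted p = 0.0120). *Eif2s1*, the phosphorylated subunit of eIF2, went from 86.3 ± 9.67 to 125 ± 0.832 CPM in cKO (adjusted p = 0.00732). Of 6 further transcription factors, *Cebpb*, a partner of ATF4 and CHOP, was called in cKO (755 ± 168 and 1346 ± 126 CPM, adjusted p = 0.00852), and in Ctrl it was at 706 ± 296 and 1435 ± 407 CPM (adjusted p = 0.107), where it passed with the block (0.0140). *Gdf15*, a stress-induced secreted factor, was at 27.7 ± 12.2 CPM in Ctrl CL and 96.8 ± 45.8 CPM in Ctrl IL (adjusted p = 0.0375). In cKO it was at 21.5 ± 5.84 and 29.6 ± 4.6 CPM (adjusted p = 0.0849). The genotype difference of *Gdf15* in IL did not pass with all libraries (−1.55 ± 0.40, adjusted p = 0.192) and passed without Ctrl IL of mouse 3546 (−1.89, adjusted p = 0.00447), and its interaction did not pass (−1.27 ± 0.59, adjusted p = 1.0). *Nupr1*, a chromatin-binding stress factor, was called in cKO (39.2 ± 5.44 and 65.9 ± 6.1 CPM, adjusted p = 0.00336), as was the mTORC1 inhibitor *Ddit4* (0.748 ± 0.527 and 2.66 ± 1.77 CPM, adjusted p = 0.0497). Beside these calls, 12.7% of all genes were called higher and 9.55% lower in cKO, and 3.68% higher in Ctrl.

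**Figure D4:**
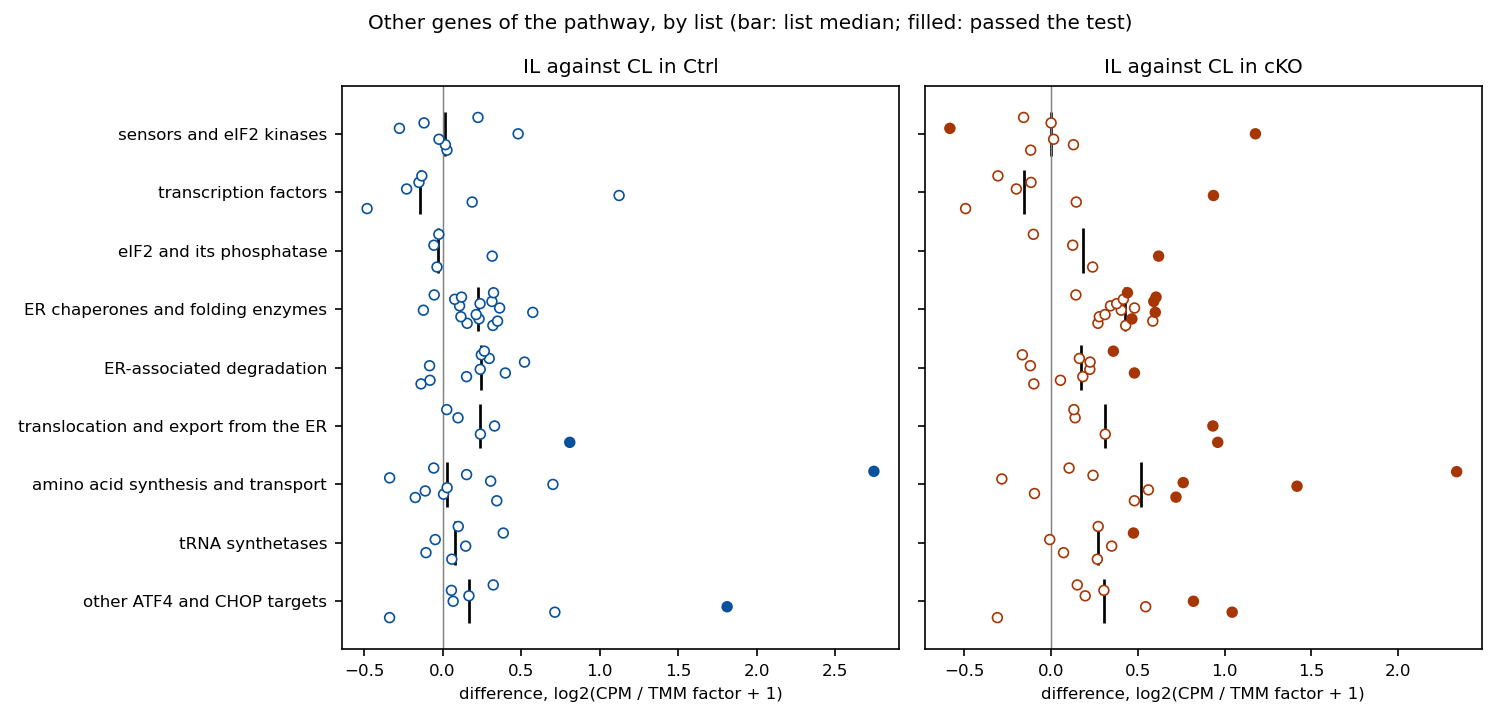
Differences between IL and CL in Ctrl (left) and cKO (right) for the other genes of the pathway, by list, on the log2(CPM divided by the scaling factor, plus 1) scale; each point is a gene, filled where it passed the test, and the bar is the list median. All 16 chaperone genes lie above 0 in cKO, and Slc7a11 is the rightmost point in both panels.

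On the log2 scale, Pearson's r across the 14 libraries was 0.91 between *Trib3* and *Asns*, 0.91 between *Dnajb9* and *Xbp1*, 0.72 between *Hspa5* and *Hsp90b1* and −0.79 between *Atf4* and *Trib3*. These are descriptions over libraries that share mice and hemispheres and differ in depth. With each group's mean removed, r between *Atf4* and *Trib3* was 0.09, whereas it was 0.86 for *Dnajb9* and *Xbp1* and 0.73 for *Hspa5* and *Hsp90b1*. *Hspa5* and *Herpud1* went from 0.36 to 0.91, and *Xbp1* and *Asns* from 0.01 to 0.88. *Atf4* had r of at most 0.52 with any other member there.

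**Figure D5:**
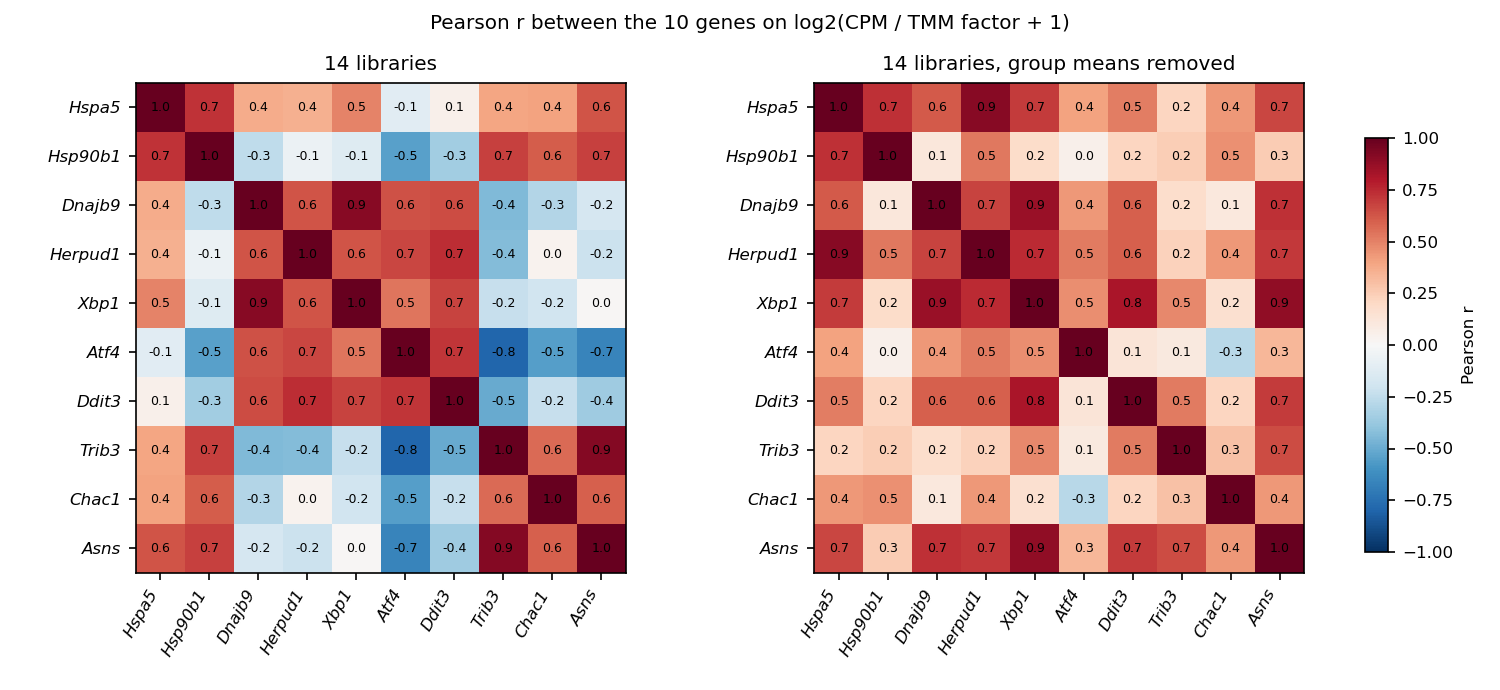
Pearson r for each pair of the 10 genes over 14 libraries (left) and after each group's mean was removed (right); colour gives r, also printed to 1 decimal, from −1 (blue) to 1 (red). Atf4 and Trib3 stand at −0.79 on the left and 0.09 on the right.

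The genes most like 4 of the members over the 14 libraries, among 9754 genes whose mean log2 level exceeded 3, came from outside the pathway lists. They were *Coq10b*, *Umps* and *Imp4* for *Hspa5* (r = 0.95, 0.94 and 0.93), *Nprl2*, *Maf1* and *Nup88* for *Xbp1* (0.96, 0.96 and 0.96), *Zbtb37*, *Wsb1* and *Siglech* for *Atf4* (0.97, 0.96 and 0.96), and *Slc50a1*, *Saysd1* and *Gm12166* for *Ddit3* (0.96, 0.96 and 0.95). With group means removed, r was 0.79, 0.79 and 0.75 for the genes of *Atf4*, in the same order, and 0.91 to 0.96 for the others. *Siglech* is one of the homeostatic microglia markers above, with means of 1419 and 569 CPM in CL and IL of Ctrl and 1219 and 586 CPM in those of cKO.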

How the data were processed

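RNA of CD11b+ cells was sequenced from Smart Seq v4 libraries. Per the submitters' notes, the authors aligned reads with STAR to mm10 and used Partek Flow 8.0; the annotation used for counting and its strand setting are not given in the sources used here. The authors deposited a table named as raw counts, but each of its 14 columns sums to 1000000, so the deposited values are CPM. Of the low values, 79.0% to 83.5% were whole multiples (tolerance 0.03) of the CPM of 1 read, from which depth was taken; the rest were not, so whole reads could not be recovered and no count test was run. Intervals from depth would cover counting error only. The authors' own tables of fold changes and p-values for cKO against Ctrl were used for gene names alone.

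CPM were divided by unweighted trimmed-mean (TMM) factors (30% of M-values and 5% of A-values trimmed), 1 was added, and log2 values were fitted with limma 3.58.1 in R 4.3.3 (empirical Bayes, trend). Genes entered with the CPM of 10 reads at median depth in as many libraries as the smaller group held. The fits were tested on simulated data. Python 3.11.15, pandas 2.3.3, numpy 2.4.6 and matplotlib 3.10.9 did the rest. Positions are GRCm38.

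Groups came from the sample labels, and the numbers in them were taken as mice. They pair the libraries, since same-numbered libraries are the 2 hemispheres of 1 mouse: deviations from group means correlated at 0.24 to 0.68 in 6 same-mouse pairs and −0.64 to 0.59 (median −0.27) in 19 other pairs of 9754 genes. The members and gene lists were chosen with earlier results of these data known. The text names the 10 members, pathway genes called in any comparison (at most 4 per list, by the smallest adjusted p in Ctrl; *Sdf2l1*, *Atf3*, *Slc38a2*, *Creld2*, *P4hb*, *Os9* and the marker genes were added after their values were seen) and the 3 genes most correlated with each of *Hspa5*, *Xbp1*, *Atf4* and *Ddit3*. *Fgf21* and *Ero1l* of the pathway list were not analysed here, and the level of the targeted gene is not reported here. Other marker lists (border-associated macrophage, dendritic, oligodendrocyte, astrocyte, neuron and endothelial cells) summed to at most 290, 63.1, 194, 96.3, 2.79 and 176 CPM in any library. Alternatives covered the pseudocount, scaling, low-value filter, call rule, libraries and mouse; their effect is given at the end.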

Additional observations from a re-analysis of the deposited data

Results flagged for a closer look

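In groups of 4 libraries, a library was set apart when its gap to the nearest other library was a larger part of the group's range than Dixon's 95% limit for 4 samples. Of 20 group and gene combinations tested, 2 met this, where chance gives about 1 in 20. *Hspa5* in Ctrl IL was 2585 CPM in mouse 3551, below the other 3 libraries, with a gap of 0.913 of the range. *Ddit3* in Ctrl CL was 38.9 CPM in mouse 3551, the shallowest CL library, with a gap of 0.869. Mouse 3551 was also the lowest Ctrl mouse for *Dnajb9*, *Herpud1* and *Xbp1* in both hemispheres. Without its CL library the *Ddit3* difference between hemispheres in Ctrl was −1.36 (adjusted p = 0.0642).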

How the results depend on the processing

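Count tests were not run, since the values are CPM. The number of members called between IL and CL in Ctrl was 2, and became 1 with no filter on low values or a fold of at least 2, 4 with all 14 libraries in 1 fit, 5 with the mouse as a random effect, 6 with the replicate block, and 1 to 3 when a library was left out. In cKO it was 5, and became 3 with no filter, 2 with a fold of at least 2, 3 with all libraries in 1 fit, 3 with a random effect, 3 with the replicate block and 2 to 5 when a library was left out. It was 0 for both genotype comparisons and the interaction in every alternative run. The genotype comparisons hold no pairs, and the block changed no other call of a member than those given above. *Ddit3* in Ctrl also passed with unscaled CPM (adjusted p = 0.0330), and *Ddit3* and *Asns* in 1 fit over all libraries (0.0324 and 0.0466). In cKO, *Ddit3* and *Dnajb9* did not pass in that fit (0.257 and 0.376) or with a random effect (0.106 and 0.168). Causes were not tested.

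Among all genes, calls in Ctrl (1089) became 535 with no filter, 553 with a fold of at least 2, 2019 in 1 fit, 4256 with a random effect and 3359 with the block, and 483 to 1431 without a library. In cKO (3736) they became 2427, 822, 1428, 3112 and 2320, and 1870 to 3531. Calls between genotypes in IL (111) became 67 with no filter and 185 with a random effect, and 46 to 280 without a library; in CL (145) they became 75 with no filter, 85 with 10 reads' worth in every library, 261 in 1 fit and 293 with a random effect, and 72 to 163. For the interaction they were 0, became 3 with a random effect and ran from 0 to 1 without a library. The share of higher calls was 55.3% in Ctrl and 57.2% in cKO, 43.4% in both with unscaled CPM, and 64.2% and 49.9% with upper-quartile scaling. Calls among the other pathway genes in Ctrl (3) were 19 with a random effect and 5 without Ctrl IL of mouse 3546 or without both shallow libraries, and in cKO (20) 11 with no filter, 4 with a fold of at least 2, 5 in 1 fit, 10 without IL of mouse 784 and 9 without IL of mouse 791.

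Signs turned for members that were not called. *Hspa5* in Ctrl was −0.039 with unscaled CPM and −0.077 to 0.14 without a library. In the interaction *Dnajb9* was −0.055 with upper-quartile scaling, and *Herpud1* and *Xbp1* were 0.048 and 0.020 without the 2 shallow libraries, an alternative added after seeing the data. When a library was left out, the IL genotype difference ran from −0.067 to 0.18 for *Atf4*, −0.060 to 0.44 for *Ddit3*, −0.064 to 0.38 for *Herpud1* and −0.15 to 0.038 for *Hspa5*. In CL it ran from −0.068 to 0.28 for *Chac1*, −0.15 to 0.34 for *Herpud1*, −0.25 to 0.00054 for *Trib3*, −0.38 to 0.0069 for *Ddit3* and −0.28 to 0.097 for *Hsp90b1*. The interaction ran from −0.13 to 0.23 for *Dnajb9*, −0.12 to 0.22 for *Chac1*, −0.23 to 0.24 for *Herpud1*, −0.16 to 0.074 for *Xbp1* and −0.0078 to 0.35 for *Hsp90b1*.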
